A study of Mus musculus with 12 samples.

Results

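Mediator is a large assembly that carries signals from DNA-bound transcription factors to RNA polymerase II. Its head and middle modules touch the polymerase, its tail receives many activators, Med14 runs through it as a backbone, and a separable kinase module (Cdk8 or its paralogue Cdk19, cyclin C, Med12 and Med13 or their paralogues) can dock on the core and hold the polymerase away. Med1, a middle subunit, is the contact through which many nuclear receptors recruit the complex. The genes described here are all the other subunits, 32 in number, taken by name from a list of the complex. All 32 were named on the array, by 65 probe sets that carry 1 gene symbol, among 18194 genes in all. Each gene is given by its brightest probe set over the 12 arrays.

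RNA came from ventral or lateral prostate of mice 16 weeks old that were wild type or carried a knockout of Med1, with 3 arrays in each of the 4 groups. WT_VP and KO_VP name the wild-type and knockout ventral arrays, and WT_LP and KO_LP the lateral ones. All groups share the age and the labelling method, and the labels list no further allele or agent. The deleted part of Med1, the cells in which it was deleted, the strain and any pooling of animals have no entry in the labels, nor do these say whether arrays of a group came from separate mice, so p-values measure the spread between these samples only, which may be technical. The values are log2 signals from RMA (robust multi-array average, which corrects background, normalizes and summarizes the probes of a set). Array medians lay at 6.39 to 6.43 in the ventral and 6.05 to 6.06 in the lateral samples, as if the lobes had been normalized apart, so genotypes were compared within a lobe. Of the prostate markers, probasin (Pbsn) averaged 12.21 in KO_VP and 13.43 to 13.49 in the other groups. Hoxb13 averaged 11.03 to 12.29 over the 4 groups. Seminal vesicle genes, 6 of 6 measured, averaged 3.81 to 5.52 in WT_VP arrays, 11.41 to 11.50 in WT_LP and 7.73 to 9.26 in the lateral arrays labelled knockout. WT_VP replicate 3 (Svs2 7.55, Pate4 6.58) and KO_LP replicate 3 (Svs2 8.71, Pate4 8.26) stood far from their groups in some of these genes. In Svs3a and Svs6 they did not. Bulk tissue cannot tell fewer cells of a type from less RNA per cell.

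The first comparison asked whether loss of Med1 went with a change in the RNA of its partner subunits. In the ventral lobe Med1 itself read 9.48, 9.52 and 9.29 in WT_VP replicates 1 to 3 and 8.90, 8.99 and 8.68 in KO_VP. Every ventral knockout array lay below every wild-type one, and the gene fell by 0.57 ± 0.125 (SE) on the log2 scale (limma adjusted p = 0.0119; without KO_VP replicate 3, fell by 0.48 with adjusted p = 0.0518). In the lateral lobe it read 8.58, 8.74 and 8.23 in WT_LP and 8.40, 8.34 and 8.44 in KO_LP. Those ranges overlapped and the difference of -0.13 ± 0.125 did not pass (limma adjusted p = 0.622), so the lateral arrays are called labelled knockout.

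None of the 32 other subunits passed in the ventral lobe, and none in the lateral, by limma at an adjusted p under 0.05. Of all genes 9.08% passed in the ventral comparison (5.88% higher, 3.20% lower) and 5.03% in the lateral one (1.62% higher, 3.42% lower). At an unadjusted p under 0.05 there were 4 ventral and 2 lateral members, beside 24.7% and 19.5% of all genes. The members' ventral differences ran from -0.24 (Med24, a tail subunit) to 0.37 (Ccnc, cyclin C), with a median of -0.0057 and 15 above 0, and the median of all genes was -0.020. Without KO_VP replicate 3 the members above 0 numbered 21 and their median was 0.036. The lateral differences ran from -0.29 (Med13l, which joins the kinase module to the core) to 0.17 (Med29, a tail subunit), with a median of -0.059 against -0.0025 over all genes. Of the lateral differences 8 were above 0, but 17 were after quantile normalization over all arrays, so no common lateral direction is given. The median size regardless of sign was 0.092 ventral and 0.085 lateral, and over all genes 0.135 and 0.121.

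A p that misses the threshold does not show that a gene did not change, so the intervals matter. The 95% intervals of limma had a median half-width of 0.22 log2 units. In the ventral lobe 31 of 32 excluded a fall as large as the one Med1 showed, and the exception was Med24, whose interval reached -0.58. In the lateral lobe, where Med1 itself did not pass, 32 of 32 excluded a fall of that ventral size. The ventral interval of Med1 ran from -0.84 to -0.30, and falls near its upper end were not excluded for every member. Changes of 1.5-fold lay outside 29 of the ventral intervals and all 32 lateral ones, and changes of 2-fold outside all 32 in either lobe. The 3 ventral exceptions at 1.5-fold were Ccnc, Med31 and Med30, whose intervals reached 0.64, 0.62 and 0.61.

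**Figure D1:**
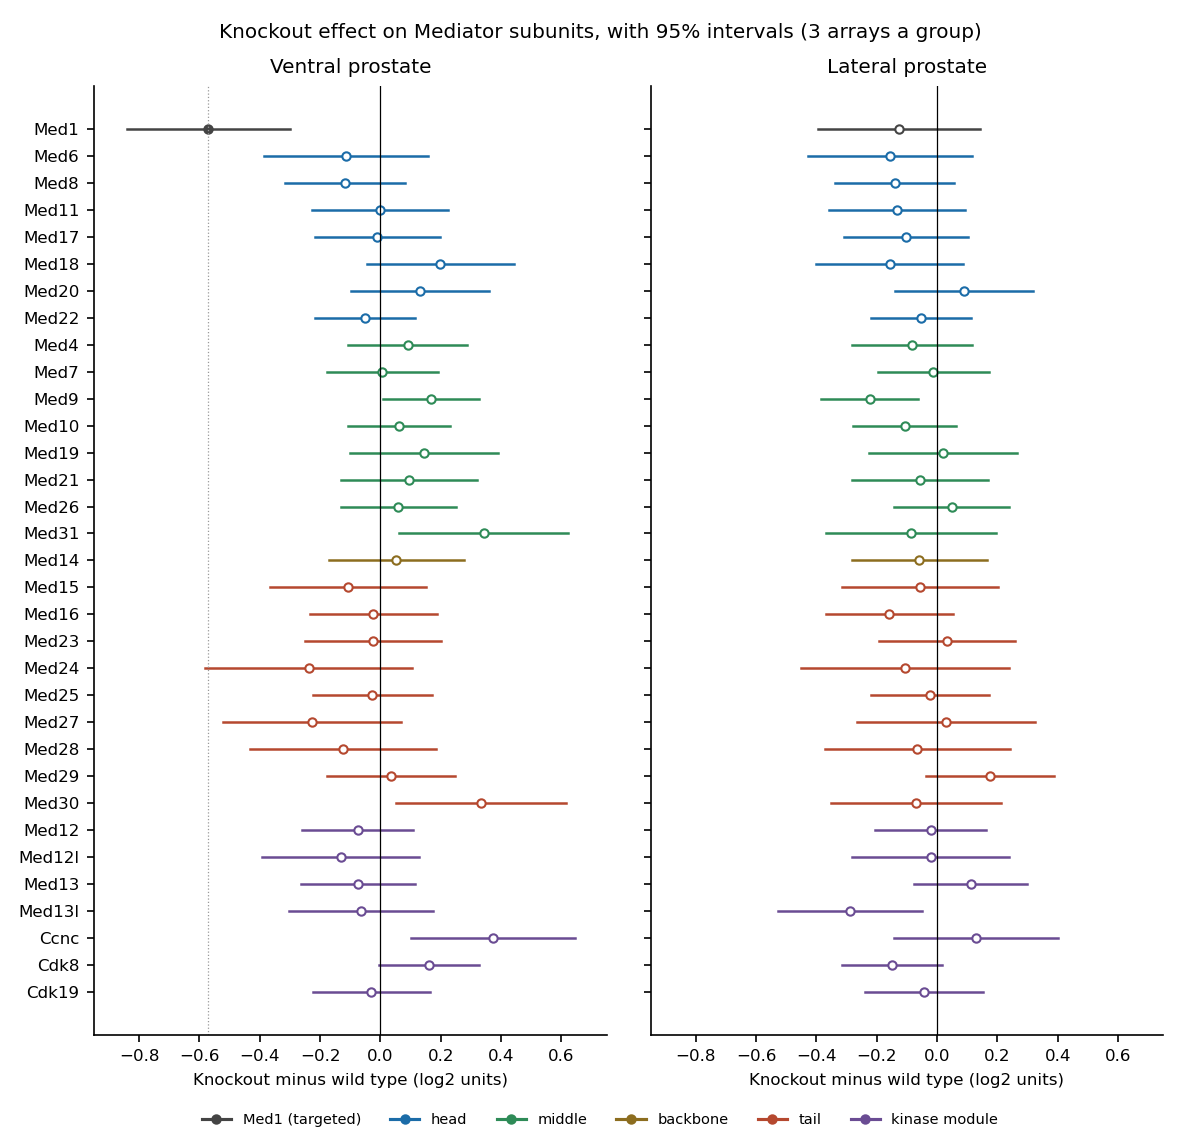
Knockout minus wild type in log2 units for Med1 and the 32 other subunits, by module, with limma's 95% intervals as lines (3 arrays a group). Filled points passed an adjusted p under 0.05, which here is Med1 in the ventral lobe alone, and the dotted line marks its value of -0.57.

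No gene of the head module passed in either lobe. Its 7 genes build the part that grips the polymerase, including Med17, its scaffold, and Med11 and Med22, which pair with each other. In the ventral lobe 2 of 7 were above 0 and the median was -0.0099, and in the lateral lobe 1 of 7 with a median of -0.13. Med18, which forms a movable jaw with Med20, had the highest ventral value of the module, 0.20 ± 0.11 (limma adjusted p = 0.301), and Med6 a ventral -0.11 and a lateral -0.16. Med22 was at -0.052 and -0.053, Med17 at -0.010 and -0.10, and Med11 at -0.0015 and -0.13, each given for the ventral lobe first.

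The middle module, in which Med1 itself sits, had 8 of 8 remaining members above 0 in the ventral lobe, with a median of 0.092. In the lateral lobe 2 of 8 were above 0 as deposited, with a median of -0.071. Over all genes the shares above 0 were 45.9% and 49.4%. None of the 8 members passed in either lobe. Med31, a small subunit bound to Med7, read 8.50, 8.73 and 8.54 in WT_VP and 9.01, 8.69 and 9.10 in KO_VP. KO_VP replicate 2 lay inside the wild-type range while the other 2 knockout arrays lay above it, and the difference was 0.34 ± 0.13 (limma adjusted p = 0.121). Without KO_VP replicate 2 it was 0.46 and passed (limma adjusted p = 0.0433). Without KO_VP replicate 3, which held the highest value, it was 0.26 and did not pass (limma adjusted p = 0.341). Laterally Med31 was at -0.087. The hinge subunits Med7 and Med21 were at 0.0063 and 0.0935 in the ventral lobe, and Med26, through which Mediator meets elongation factors, at 0.060. The dimmer Med26 probe set passed as lower there, as given below. The backbone Med14 was at 0.052 ventrally and -0.060 laterally.

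Med9, which pairs with Med4 in the middle module, was the only member called for a knockout effect that differed between the lobes. It read 9.22, 9.35 and 9.21 in WT_VP and 9.41, 9.42 and 9.45 in KO_VP, and then 8.59, 8.60 and 8.56 in WT_LP and 8.33, 8.38 and 8.37 in KO_LP. The ventral knockout arrays all lay above the ventral wild type and the lateral arrays labelled knockout all lay below the lateral wild type. The difference was 0.17 ± 0.074 in the ventral lobe (limma adjusted p = 0.177) and -0.22 ± 0.074 in the lateral lobe (limma adjusted p = 0.107), neither of which passed. The difference between these effects, lateral minus ventral, was -0.39 ± 0.10 and passed (limma adjusted p = 0.0323), and none of the other 31 members did. Of all genes 9.31% passed this test (2.80% higher, 6.51% lower). At an unadjusted p under 0.05 there were 5 members (Med9, Cdk8, Med31, Med18 and Med30), beside 25.5% of all genes. Med31 (-0.43 ± 0.19) and Med30 (-0.40 ± 0.19) had larger differences than Med9, but also larger SE. The Med9 call was lost in 12 of 20 alternatives, among them 9 of the 12 in which 1 array was left out. The limma adjusted p of Med9 ran from 0.0164 to 0.130 over all 20. The exceptions, where it held with 1 array left out, were WT_VP replicate 2, KO_VP replicate 3 and KO_LP replicate 2. Its second probe set went the same ways, 0.15 ventrally and -0.10 laterally.

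Smooth muscle and basal epithelial genes, like Med9, were above wild type in the ventral and below it in the lateral lobe, all 9 and all 4 of those measured. Smooth muscle genes averaged 9.83 to 10.12 in WT_VP arrays, 10.46 to 10.68 in KO_VP, 11.27 to 11.40 in WT_LP and 10.77 to 11.08 in KO_LP, and in 8 of 9 the difference between the lobes' effects passed as lower. That difference also passed as lower in 6 of 8 fibroblast genes, 3 of 4 basal epithelial genes and 4 of 6 seminal vesicle genes. The part of cell makeup in the Med9 result was not tested.

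The tail module gave single high and low readings in 1 ventral knockout array more than a shift. Med30, found in animal but not yeast Mediator, read 8.87, 9.02 and 8.93 in WT_VP and 9.09, 9.09 and 9.63 in KO_VP. The groups did not overlap, yet the knockout mean rested in large part on replicate 3, and the difference of 0.33 ± 0.13 did not pass (limma adjusted p = 0.133). Med24 read 7.19, 7.44 and 6.99 in WT_VP and 7.09, 7.28 and 6.53 in KO_VP, again with replicate 3 farthest out (-0.24 ± 0.16, limma adjusted p = 0.388). Med27 was the one ventral member whose knockout arrays all lay below the wild type (7.77, 7.75 and 7.84 against 7.72, 7.74 and 7.22), at -0.23 ± 0.14 (limma adjusted p = 0.331). The other 6 tail genes had ventral values from -0.12 for Med28 to 0.034 for Med29. Among them Med15, a target of sterol-responsive activators, was at -0.11, Med23, which binds Ets-type activators, at -0.023, Med25 at -0.027 and Med16 at -0.023. In the ventral lobe 4 of 32 members had groups without overlap (Med9, Med30 and Cdk8 higher, Med27 lower), and in the lateral lobe 7 of 32 (Med13 higher; Med9, Med10, Med13l, Med16, Med18 and Cdk8 lower). Over all genes these shares were 29.5% (14.9% higher, 14.6% lower) and 26.9% (11.2% higher, 15.7% lower).

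KO_VP replicate 3 deviated from the mean of the other 2 arrays of its group by more than 0.3 log2 units in 8 of 32 members and in 22.02% of all genes, and the other 11 arrays in 0 to 5 members and 7.23% to 12.6% of genes. Its lowest member by this measure was Med24 (-0.66) and its highest Med30 (0.54). Without it none of the 32 members passed in the ventral lobe, and the differences of Med30, Med24 and Med27 were 0.15, -0.018 and -0.058. The sign turned in 8 members, 6 of them the other tail genes: Med28 (0.062), Med15 (0.057), Med16 (0.077), Med23 (0.069), Med25 (0.0050) and Med29 (-0.010). The remaining 2 were Med17 (0.028) and Med13l (0.031).

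In the kinase module the catalytic pair and its cyclin were followed array by array. Cyclin C, the partner that activates Cdk8, read 7.08, 7.41 and 7.24 in WT_VP and 7.34, 7.67 and 7.84 in KO_VP. KO_VP replicate 1 lay inside the wild-type range, and the difference of 0.37 ± 0.13 did not pass, although its p was the smallest of the ventral members (limma adjusted p = 0.0836). Without KO_VP replicate 1 it was 0.51 and passed (limma adjusted p = 0.0251). Without KO_VP replicate 3, which held the highest value, it was 0.26 and did not pass (limma adjusted p = 0.277). Laterally it was at 0.13. The other 4 Ccnc probe sets, all dimmer, were at -0.12, -0.092, 0.14 and 0.22 in the ventral lobe, so they did not share a direction. Cdk8 read 8.88, 8.85 and 8.78 in WT_VP and 9.01, 8.93 and 9.04 in KO_VP, then 7.80, 7.87 and 7.88 in WT_LP and 7.64, 7.78 and 7.68 in KO_LP. As with Med9, the ventral knockout arrays lay above and the lateral arrays labelled knockout below their wild types (0.16 ± 0.077 and -0.15 ± 0.077), but the difference between the effects, -0.31 ± 0.11, did not pass (limma adjusted p = 0.0917). Its paralogue Cdk19 was at -0.030 and -0.043.

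The paralogues of the 2 large kinase-module subunits were also compared. Med12, the activator of Cdk8 and an X-linked gene, was at -0.075 ± 0.086 ventrally and -0.021 ± 0.086 laterally, with array values from 8.98 to 9.32. Med12l read 4.66 to 5.19, close to the lower quartile of all probe sets (4.73 in ventral and 4.52 in lateral arrays), and was at -0.13 and -0.021. Med13 was at -0.074 in the ventral lobe and 0.11 in the lateral lobe. Med13l read 8.60, 8.59 and 8.58 in WT_VP, 8.47, 8.77 and 8.33 in KO_VP, 7.55, 7.58 and 7.70 in WT_LP and 7.44, 7.15 and 7.36 in KO_LP. The lateral arrays labelled knockout all lay below the wild type, with a difference of -0.29 ± 0.11 that did not pass (limma adjusted p = 0.164), and its 3 probe sets were all below 0 there, from -0.29 to -0.11. In the ventral lobe it was at -0.065.

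**Figure D2:**
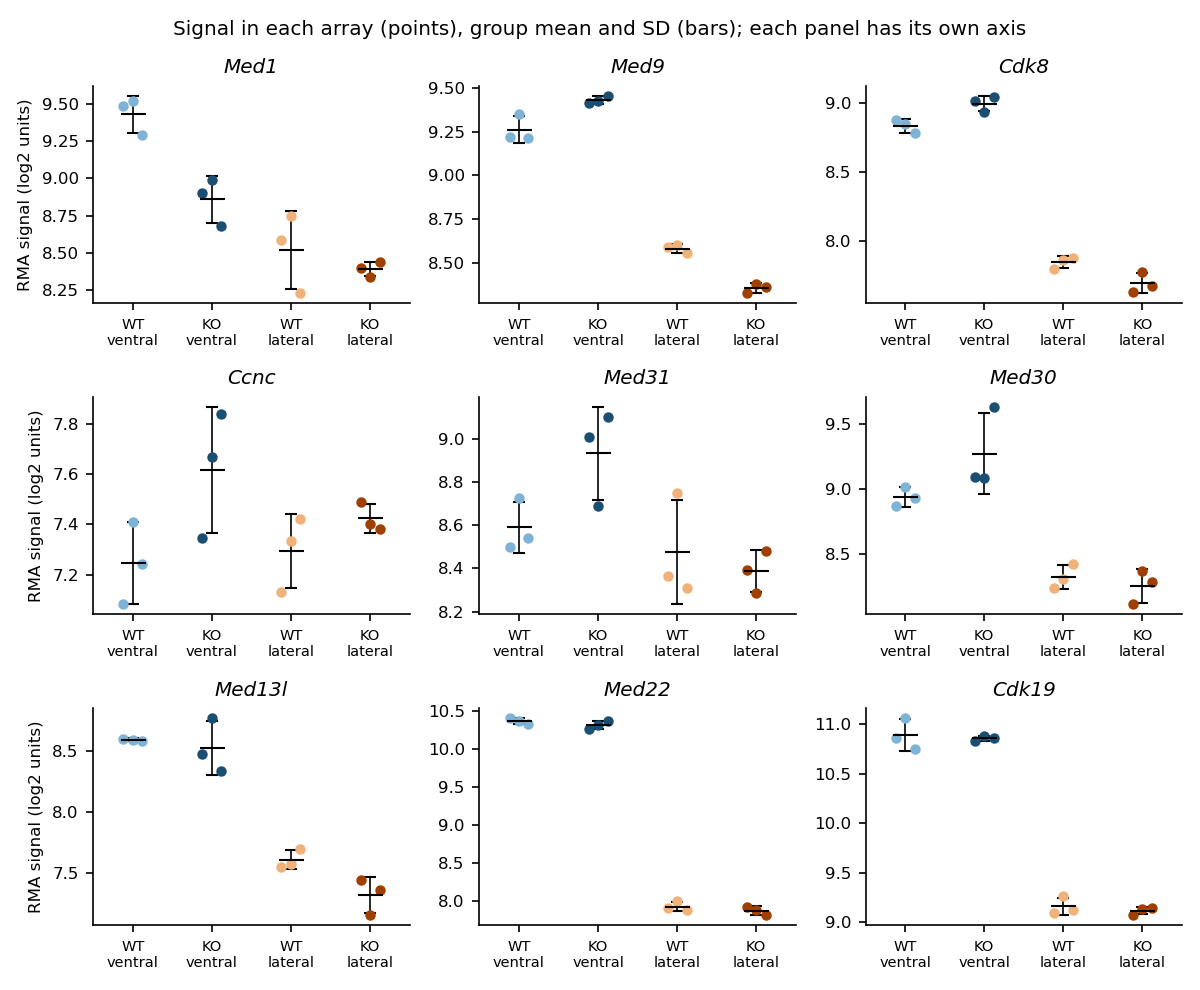
RMA signal in log2 units of Med1 and 8 other subunits in each of the 12 arrays (points), with the group mean and SD (bars, n = 3). In Med9 and Cdk8 the knockout arrays lie above the wild type in the ventral and below it in the lateral lobe, and in Med22 and Cdk19 the lateral arrays of both genotypes lie far below the ventral ones.

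The probe sets gave a further check, since 18 of the 32 genes have more than 1. In the ventral lobe all probe sets of a gene lay on the same side of 0 in 4 of these 18 genes, and in the lateral lobe in 10. Tested one by one, 1 of 65 ventral probe sets passed and 0 of 65 lateral ones (limma), where 2576 and 1384 of 45101 passed over the array. The one was the dimmer of 2 probe sets of Med26, lower by 0.36 ± 0.095 in the ventral knockout (limma adjusted p = 0.0419), while the brighter was at 0.060; the dimmer one also passed in the difference between lobes (0.55, limma adjusted p = 0.0288). For Med1, by contrast, 7 of 7 probe sets were lower in the ventral knockout and 4 passed, while in the lateral lobe 3 of 7 were lower and 0 passed.

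**Figure D3:**
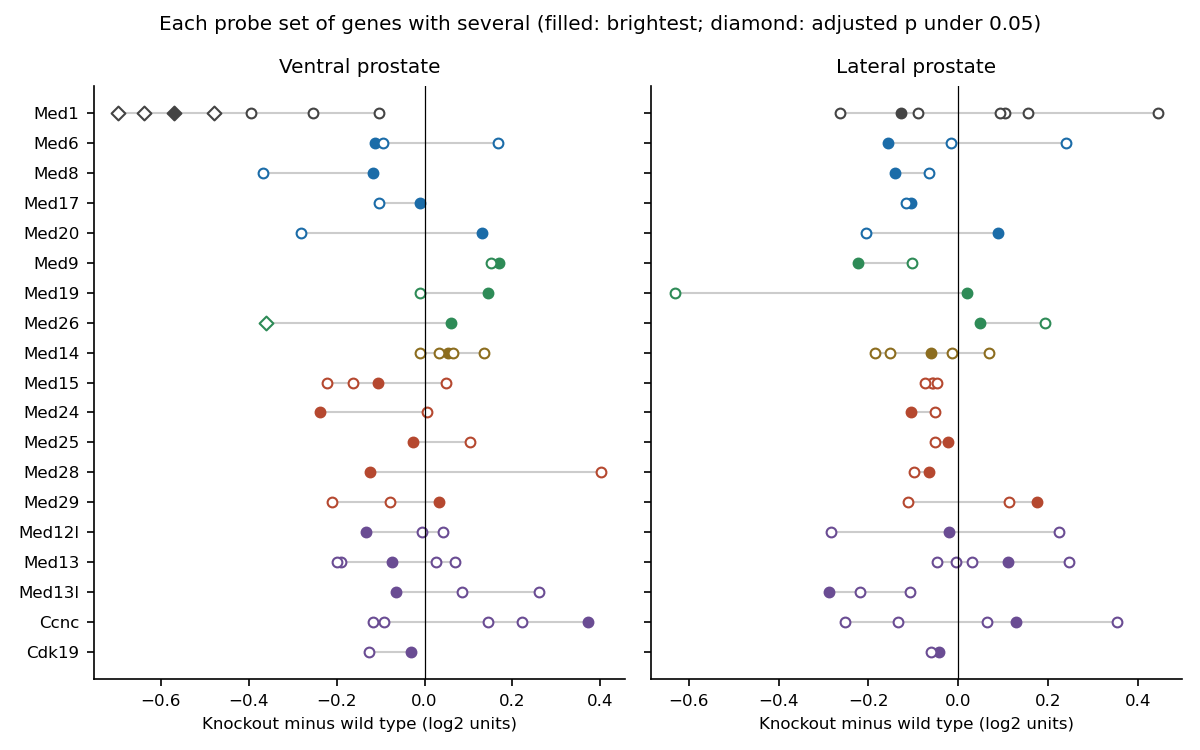
Knockout minus wild type in log2 units for each probe set of Med1 and of the 18 subunits that have several. Filled symbols are the brightest probe set, diamonds passed an adjusted p under 0.05 over all probe sets; the Med1 probe sets lie below 0 in the ventral lobe, and those of most other subunits lie on both sides of it.

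Genes that work beside Mediator were taken from lists of the transcription machinery. RNA polymerase II genes were the only list of the 4 with a called gene in the ventral lobe, with 2 of 10 higher and 0 lower. Of all genes 5.88% passed as higher and 3.20% as lower there, and 1.62% and 3.42% in the lateral lobe. Polr2a, the largest and catalytic subunit, read 10.93, 10.89 and 10.86 in WT_VP and 11.51, 11.50 and 11.29 in KO_VP, then 10.46, 10.48 and 10.32 in WT_LP and 10.85, 10.76 and 10.94 in KO_LP. In each lobe every array labelled knockout lay above every wild-type array. Polr2a rose by 0.54 ± 0.089 ventrally (limma adjusted p = 0.00198) and by 0.43 ± 0.089 laterally (limma adjusted p = 0.0122). Polr2b, the second largest subunit, rose by 0.43 ± 0.11 in the ventral lobe (limma adjusted p = 0.0265) and was at -0.081 in the lateral lobe. It read 9.41, 9.47 and 9.34 in WT_VP and 9.78, 9.61 and 10.11 in KO_VP, so KO_VP replicate 3 was farthest out. The other 8 polymerase genes did not pass in either lobe.

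General transcription factors, which place the polymerase at promoters, had 0 of 29 called in either lobe, with medians of 0.090 ventral and -0.090 lateral. Cohesin and its loader Nipbl, which join Mediator at enhancers and promoters, had 0 of 10 called in either lobe. Elongation factors had 0 of 19 called in the ventral lobe, and 1 higher and 1 lower in the lateral lobe. Ell2, an elongation factor prominent in secretory cells, fell by 0.67 ± 0.11 in the lateral arrays labelled knockout (limma adjusted p = 0.00319), and Mllt3, a partner of the super elongation complex, rose by 0.39 ± 0.091 (limma adjusted p = 0.0233). Of these, Mllt3 also passed in the difference between the lobes' effects (limma adjusted p = 0.0154), and Ell2 did not (limma adjusted p = 0.0638). At an unadjusted p under 0.05, the transcription factor list held 3 ventral and 3 lateral genes, the cohesin list 3 and 0, the elongation list 4 and 3, and the polymerase list 2 and 2. The shares over all genes were 24.7% and 19.5%, and by adjusted p under 0.05 they were 9.08% and 5.03%.

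The lobes differed far more than the genotypes. In wild type 22 of 32 members were lower in the lateral lobe and 0 higher, where 68.1% of all genes passed, 55.8% lower and 12.3% higher. In the knockout 23 were lower and 0 higher, where 67.3% passed, 53.1% lower and 14.2% higher. The median over all genes was itself -0.34 in wild type and -0.31 in knockout, and the members' medians were -0.53 and -0.59. Centring the arrays on their medians gave 6 members higher and 14 lower in wild type, and 5 and 15 in the knockout. Of all 18194 genes, 5574 were then higher and 5250 lower in wild type, and 6353 and 5715 in the knockout. Quantile normalization over all arrays gave 7 members higher and 11 lower in wild type, and 10 and 12 in the knockout, where 5770 genes were higher and 4673 lower in wild type, and 6452 and 4899 in the knockout. The 9 members lower and called in both genotypes under all 3 scalings were Med22, Med17 and Med6 of the head, Med10, Med19 and Med26 of the middle, and Cdk19, Cdk8 and Med13l of the kinase module, where 18.2% of all genes were. No tail subunit was among them, and no member was higher and called throughout, as 8.38% of all genes were. For 13 members the direction was not the same in all 6 combinations of scaling and genotype.

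Med22 showed the widest gap. It read 10.40, 10.36 and 10.32 in WT_VP and 10.25, 10.31 and 10.37 in KO_VP, against 7.90, 7.999 and 7.88 in WT_LP and 7.93, 7.88 and 7.81 in KO_LP. The lateral values were all far below the ventral ones in both genotypes. In wild type the difference was -2.44 ± 0.077 (limma adjusted p = 1.17e-11), a 5.41-fold lower signal, which was -2.08 or 4.22-fold lower after centring and -1.92 after quantile normalization. Within each array its rank among all genes, which no scaling of the array changes, went from the 90.5th percentile on average in WT_VP to the 67.5th in WT_LP and from the 89.9th in KO_VP to the 67.6th in KO_LP. A single probe set measures it.

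The kinases came next. Cdk19 read 10.86, 11.06 and 10.75 in WT_VP and 9.10, 9.26 and 9.13 in WT_LP, with 10.83 to 10.89 in KO_VP and 9.08 to 9.15 in KO_LP. Its difference in wild type was -1.73 ± 0.091 (limma adjusted p = 1.51e-09; -1.18 after quantile normalization), and its second probe set was at -1.72. Cdk8 was at -0.98 in wild type and -1.29 in the knockout, and at -0.49 and -0.72 after quantile normalization, so both interchangeable kinases read lower in the lateral lobe. Med13l was at -0.98 and -1.20. Cyclin C was not lower by its brightest probe set (0.049), while its other 4 were at -1.33 to -0.41. At the other end stood Med25 (0.14), Ccnc (0.049), Med16 (0.025), Med12l (0.0081) and Med29 (-0.060), which relative to the median of all genes were at 0.48, 0.39, 0.36, 0.34 and 0.28. The tail subunits Med25, Med16 and Med29 were among these, but Med27 (-0.81), Med23 (-0.64) and Med30 (-0.61), also of the tail, were among the lower ones. Med25 went from the 64.8th percentile of its arrays in WT_VP to the 73.6th in WT_LP. Of 4 Med15 probe sets, the brightest was at -0.31 and the others at 0.57, 0.25 and 0.15.

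The samples of the lobes also differed in cell type markers. Smooth muscle genes passed as higher in lateral wild type in 9 of 9 cases, basal epithelial genes in 4 of 4 and seminal vesicle genes in 6 of 6. Leukocyte genes passed as lower in 8 of 8 and luminal epithelial genes in 6 of 7. These counts are for the values as deposited, where 55.8% of all genes passed as lower and 12.3% as higher. Leukocyte genes averaged 6.46 to 6.68 in WT_VP and 5.45 to 5.57 in WT_LP. Their part in the lobe differences was not tested, and the lobe and its normalization cannot be told apart beyond what the 3 scalings share.

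**Figure D4:**
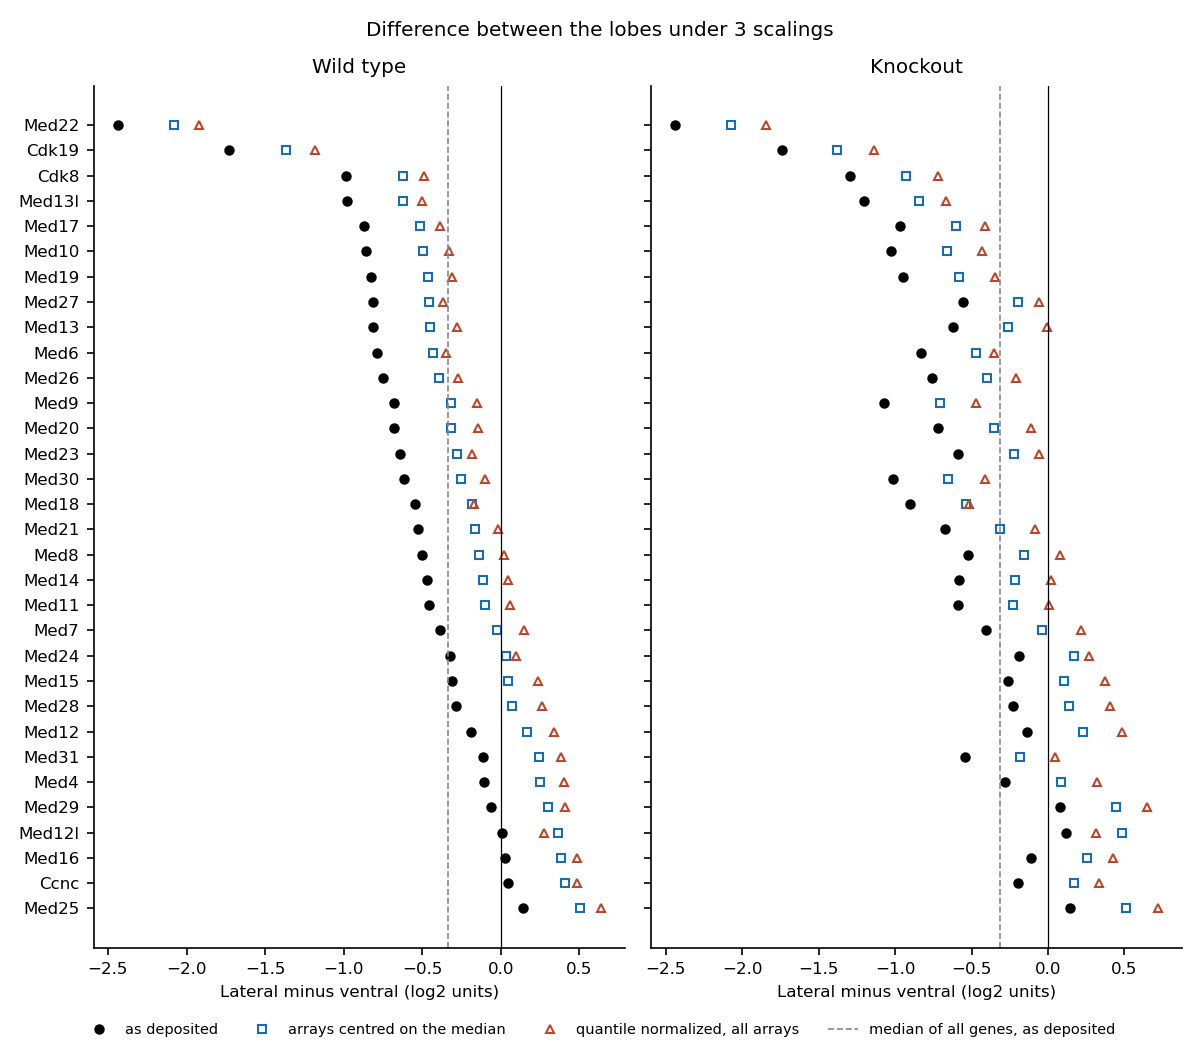
Lateral minus ventral difference in log2 units for the 32 subunits, ordered by the wild-type value as deposited, in each genotype and under 3 scalings, with the median of all genes as a dashed line. Med22 and Cdk19 stand apart from the other members at every scaling, while 13 members do not keep 1 sign over scalings and genotypes.

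The promoters of 4 members are shown as examples from the results above. No such window was available for Cdk19. Med22 and Cdk8 were lower in the lateral lobe, and Med9 was the only member called for a knockout effect that differed between lobes. Med12 did not pass between lobes as deposited, and its difference changed sign with the scaling (-0.19 as deposited and 0.34 after quantile normalization in wild type). The 4 were chosen after their values were seen. The windows hold 250 bases before and 50 after the RefSeq gene start in GRCm38.p6, at chr2:26910593-26910892 on the minus strand for Med22, chr5:146231000-146231299 on the plus strand for Cdk8, chr11:59947964-59948263 on the plus strand for Med9 and chrX:101273841-101274140 on the plus strand for Med12. Capitals mark the GC box GGGCGG on either strand, the only one of the 5 motifs described here that these windows held.

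Med22: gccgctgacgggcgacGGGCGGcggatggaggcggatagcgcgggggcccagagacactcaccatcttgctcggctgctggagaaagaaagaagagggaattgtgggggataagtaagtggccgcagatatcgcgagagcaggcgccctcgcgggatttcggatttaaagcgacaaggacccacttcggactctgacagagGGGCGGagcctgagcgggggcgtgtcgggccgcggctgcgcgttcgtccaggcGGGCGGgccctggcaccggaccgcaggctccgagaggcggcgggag

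Cdk8: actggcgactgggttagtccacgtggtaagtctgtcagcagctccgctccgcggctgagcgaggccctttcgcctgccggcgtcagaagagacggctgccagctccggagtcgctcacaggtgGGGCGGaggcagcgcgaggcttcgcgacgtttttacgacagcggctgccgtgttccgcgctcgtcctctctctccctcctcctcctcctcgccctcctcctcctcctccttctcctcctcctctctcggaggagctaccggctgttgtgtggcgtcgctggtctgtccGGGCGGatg

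Med9: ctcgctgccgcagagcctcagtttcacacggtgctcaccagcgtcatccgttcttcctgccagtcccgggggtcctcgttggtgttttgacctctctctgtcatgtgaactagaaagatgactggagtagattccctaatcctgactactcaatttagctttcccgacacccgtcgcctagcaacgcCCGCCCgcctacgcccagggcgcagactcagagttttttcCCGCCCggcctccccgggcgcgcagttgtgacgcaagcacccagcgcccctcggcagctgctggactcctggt

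Med12: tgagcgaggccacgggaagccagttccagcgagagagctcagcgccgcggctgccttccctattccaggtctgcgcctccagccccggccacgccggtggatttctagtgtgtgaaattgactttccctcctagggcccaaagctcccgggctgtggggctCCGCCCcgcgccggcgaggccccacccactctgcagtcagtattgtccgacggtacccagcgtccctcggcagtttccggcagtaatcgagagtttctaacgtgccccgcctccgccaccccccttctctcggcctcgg

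Med22 held 3 GC boxes, Cdk8 and Med9 each held 2 and Med12 held 1. Over the family, RefSeq gave 31 such windows for 27 of the 32 members. Their median GC content was 57.7% and their median number of CpG dinucleotides 20, against 52.7% and 7 in all 32851 windows. On both strands GGGCGG was in 61.3% of the members' windows and 35.7% of all, the Ets core CCGGAAG in 29.0% and 8.86%, and the NRF1 site in 12.9% and 4.60%. CCAAT was in 35.5% and 37.4%, and the TATA box TATAAA in 9.68% and 13.6%. These are matches of letters, which move with base composition, and none of these motifs overlaps another in the windows shown.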

How the data were processed

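Affymetrix arrays of 45101 probe sets were measured on 12 prostate samples. The authors deposited log2 signals made with Affymetrix Expression Console and RMA, per the submitters' processing notes, with versions not stated. The sorted values differed by a median of 0.0493 log2 units over the ventral, 0.0786 over the lateral and 0.388 over all arrays.

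Probe sets were named from the platform annotation (34958 with 1 symbol, 932 with several and 9211 unnamed here), with symbols updated through Entrez identifiers for 34754. The brightest probe set stood for each of 18194 genes. The test was a moderated linear model (limma 3.58.1 under R 4.3.3) of 4 group means over all 12 arrays, with 8 residual and 5.68 prior degrees of freedom and Benjamini-Hochberg adjustment over all genes, and was tested on simulated data. A gene passed at an adjusted p under 0.05. The number of arrays limits the precision.

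Every member is accounted for, with no filter on low values. Named genes were the 32 members and up to 3 called genes per list of the transcription machinery and lobe. Array values are given for members past the threshold for knockout effects and for the 3 of smallest p per genotype contrast. Of the paralogue pairs, Cdk8 and Med13l are given in full. Cdk19, Med12 and Med12l are given partly or wholly as ranges, and Med13 by its differences. Array values of Med22, Med24 and Med27 were added after they were seen. The lists held 12 polymerase genes, 31 general transcription factors, 22 elongation factors and 10 cohesin genes, of which 10, 29, 19 and 10 were measured. Members and lists were chosen with earlier results of these data known. Same-numbered arrays deviated together with correlations of -0.0608 to 0.116, so the numbers were not treated as pairs. The closing section gives the alternatives. Some marker genes and 1 further motif are not reported here.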

Additional observations from a re-analysis of the deposited data

Results flagged for a closer look

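Med9 was singled out because its knockout effect differed between the lobes by a test of the difference itself. The effect was 0.17 ventrally and -0.22 log2 units laterally, and the difference of -0.39 had a limma adjusted p of 0.0323, with 3 of 3 ventral knockout arrays above and 3 of 3 lateral arrays labelled knockout below their wild types. It was the only one of 32 members to pass, while 9.31% of all genes did, and smooth muscle genes shifted in the same directions; whether the 2 are linked was not tested.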

How the results depend on the processing

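The counts of called members in the lateral genotype comparison (0) and between the lobes held under each alternative within 1.5 times, although the directions between lobes did not. In the ventral comparison the members called numbered 0 to 1 with an array left out and 1 at an adjusted p under 0.1. For the difference of effects between lobes they numbered 0 to 1 with an array left out, 0 with the replicate block (Med9 adjusted p = 0.0523), 0 after quantile normalization over all arrays (0.0721), 0 by the brightest probe set of each member when every probe set was tested (1 of 65 member probe sets, the dimmer of Med26, passed) and 2 at an adjusted p under 0.1. Without WT_VP replicate 3 and KO_LP replicate 3 together, an alternative chosen after seeing the data, it was 0 (0.130). The block changed no other member's genotype call, and the cause of the lost Med9 call was not tested.

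Over all genes, ventral calls were 860 to 1760 with arrays left out, 965 with the ventral arrays alone, 2704 at an adjusted p under 0.1 and 2576 as probe sets. Lateral calls were 499 to 1168, 1509 under 0.1 and 1384 as probe sets. Calls for the difference were 973 to 1732, 2726 under 0.1 and 2600 as probe sets. Between lobes 30301 probe sets passed in wild type and 29468 in knockout, by the larger number tested.

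Differences between lobes that passed as deposited or under the alternative turned sign as follows. Quantile normalization in wild type gave Med8 0.025, Med11 0.061, Med4 0.40, Med7 0.15, Med31 0.39, Med14 0.048, Med15 0.24, Med29 0.41 and Med12 0.34. In the knockout it gave Med1 0.13, Med8 0.082, Med11 0.0099, Med4 0.32, Med7 0.22, Med31 0.049, Med14 0.020, Med15 0.37, Med16 0.43, Med28 0.40, Med12 0.49 and Ccnc 0.33. Median centring gave Med4 0.25, Med15 0.049 and Med29 0.30 in wild type and Med4 0.083, Med16 0.25 and Med12 0.23 in the knockout. Averaging probe sets gave Med15 0.16, Med12l -0.34 and Ccnc -0.52 in wild type and Med15 0.22, Med25 -0.24 and Med12l -0.34 in the knockout. Without passing on either side, Med24 (0.10 and 0.27) turned under quantile normalization in wild type and knockout and Med28 (0.26) in wild type. Under centring so did Med24 (0.034), Med28 (0.074), Med12 (0.17) and Med31 (0.245) in wild type and Med24 (0.17), Med15 (0.10), Med28 (0.14) and Ccnc (0.17) in the knockout. These scalings shift all lateral values against the ventral ones, and averaging brings in dimmer probe sets. Arrays carry no read depth, and only Med12l lay near the lower quartile of signal.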

Other observations

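The genes next to Med22 on its chromosome were looked up because of its gap between lobes, after its values were seen. Surf6, a nucleolar protein gene directly beside it, averaged 11.21 log2 units in WT_VP and 8.93 in WT_LP, a difference of -2.28 (limma adjusted p = 1.15e-10), close in size to that of Med22. Abo, the blood group glycosyltransferase beyond Surf6, went from 12.45 to 9.15 (-3.30, limma adjusted p = 5.07e-11). On the other side, the ribosomal protein gene Rpl7a was at -0.40, Surf1 at -0.39, Surf2 at -0.76 and Surf4 at -0.58, where the median of all genes was -0.34. Surf6 and Abo were at -0.11 and -0.50 in the ventral knockout and at -0.17 and -0.048 in the lateral arrays labelled knockout. Beside Cdk8, Rnf6 was at -1.21 and Wasf3 at -0.24 between the lobes in wild type. The genes directly beside Cdk19 had no value here, and of the next ones out Gtf3c6 was at -0.93 and Slc22a16 at 0.22. The neighbours of Med9 that were measured, Cops3, Nt5m, Rasd1 and Pemt, were at -0.64, -0.55, -1.20 and -0.66, and Med9 itself at -0.68.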
